A study of Mus musculus with 2 samples.

Results

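The 29 genes described here cover the route from acetyl-CoA to cholesterol, the proteins that regulate it, and a set of genes that carry cholesterol between and within cells. They were chosen by name as genes of this pathway, with earlier results of these data known, and all 29 of 29 were found among the 19720 genes of the deposited table through their Ensembl identifiers. By role, 18 are synthesis enzymes, 5 are regulators and 6 are transport genes. Reads were counted in 1 RNA library from H2AZfl/fl embryos, whose alleles of the histone variant gene are floxed, and 1 from H2AZcKO embryos, the conditional knockout. The floxed library is used as the control, although its title calls it WT. Both come from C57BL/6 mouse brain, labelled as telencephalic tissue, with cerebral cortex named in the extraction protocol. The titles give embryonic day 16 and another label field gives day 12, so the age is uncertain. The sources used here do not give the Cre driver, the number of embryos per library or any pooling. Triplicates are mentioned in the series' design, but the table holds 1 count column per genotype. There is therefore no replicate error, no test between genotypes was possible, and each interval below covers counting error alone.

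Cholesterol is built from acetyl-CoA through mevalonate and isoprenoid units, which are joined to squalene and then closed and trimmed into the sterol. When sterols in the endoplasmic reticulum are scarce, the escort protein SCAP carries the SREBP transcription factors to the Golgi for cleavage, and the freed fragments switch on the enzyme genes. INSIG proteins hold SCAP back when sterols are plentiful. The brain depends on its own synthesis, and glial cells export cholesterol on apolipoprotein E particles that neurons and other cells take up.

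The control library holds 8474545 reads in genes and the knockout library 9028523. Genes with 20 or more reads over both libraries were taken as measured, which gave 14366 genes, all 29 members among them. Ratios are knockout over control after scaling by the trimmed mean of M-values (TMM), on the log2 scale unless given as a fold, with an exact 95% Clopper-Pearson interval for how a gene's reads divide between the libraries. A gene is called beyond counting error where that interval excludes a ratio of 1. Reads are given in control and knockout order. H2afz, which encodes H2A.Z, had 1152 and 535 reads, 2.24-fold lower (2.02 to 2.49). Telencephalic markers were present in both libraries, with 10 of 10 measured and a summed level of 3779 and 3682 CPM, a gene's TMM-scaled reads brought to a fixed library total. Choroid plexus and meningeal markers separated the libraries most. Their summed levels were 815 and 23.5 CPM for choroid plexus and 255 and 20.7 CPM for meninges and fibroblasts.

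Promoter sequence is shown first for 4 members, because 1 short box was common in the start regions of the synthesis enzymes. RefSeq promoter windows on GRCm38.p6, running from 250 bases before to 50 bases after a start, were matched for 23 of 29 members. No window was matched for Clu, Abcg1, Stard4, Sqle, Fdft1 and Fdps. The runs below are the 250 bases before the start, 5′ to 3′, with matches to 2 motifs in capitals: TCACNCCAC, a form of the sterol regulatory element bound by SREBP, and CCAAT, the box bound by NF-Y. Both strands were searched, so ATTGG is CCAAT on the other strand. Hmgcs1 (chr13:119690101-119690350, plus strand) is shown as the 1 of the 23 members with a window that matched TCACNCCAC. Other forms of the sterol element were not searched. Mvk (chr5:114444019-114444268, plus strand) has the most CCAAT boxes of the members with a window. Apoe (chr7:19699189-19699438, minus strand) and Srebf1 (chr11:60222582-60222831, minus strand) stand for members that were lower in the knockout library. Mvk, Apoe and Srebf1 were picked after their matches or values were seen, and for Apoe and Srebf1 the run belongs to the outermost of 3 RefSeq starts. The innermost Srebf1 run (chr11:60210472-60210721, not shown) also held 1 CCAAT box and no TCACNCCAC match, and the middle run held neither motif.
Hmgcs1: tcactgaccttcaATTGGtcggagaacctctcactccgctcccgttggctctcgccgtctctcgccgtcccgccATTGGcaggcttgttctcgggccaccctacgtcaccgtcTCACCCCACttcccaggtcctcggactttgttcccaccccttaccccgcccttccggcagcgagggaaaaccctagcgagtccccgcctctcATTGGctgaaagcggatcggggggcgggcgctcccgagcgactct
Mvk: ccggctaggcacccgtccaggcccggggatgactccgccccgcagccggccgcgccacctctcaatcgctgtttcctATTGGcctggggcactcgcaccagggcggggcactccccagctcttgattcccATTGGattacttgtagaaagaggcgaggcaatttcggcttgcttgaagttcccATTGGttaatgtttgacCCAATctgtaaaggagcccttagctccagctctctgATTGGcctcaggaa
Apoe: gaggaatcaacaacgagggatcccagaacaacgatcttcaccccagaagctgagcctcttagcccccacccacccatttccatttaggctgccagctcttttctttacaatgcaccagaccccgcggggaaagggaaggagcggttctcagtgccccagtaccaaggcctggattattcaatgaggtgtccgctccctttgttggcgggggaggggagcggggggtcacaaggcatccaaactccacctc
Srebf1: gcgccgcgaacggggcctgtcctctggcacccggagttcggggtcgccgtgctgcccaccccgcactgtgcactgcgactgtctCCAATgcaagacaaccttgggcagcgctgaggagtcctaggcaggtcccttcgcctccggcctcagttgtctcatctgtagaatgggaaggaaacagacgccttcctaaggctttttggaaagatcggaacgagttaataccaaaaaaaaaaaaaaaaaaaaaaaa

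CCAAT was common before the synthesis enzymes. It lay in at least 1 window of 14 of 15 enzymes with a window, or 93.3%, against 42.9% of 10710 measured genes with a window and 41.1% of all 27025 genes. Acat2 was the 1 enzyme without it. Of the regulators, 4 of 5 held it, and of the transport genes with a window, Apoe, Abca1 and Lrp1, 0 of 3 did. Those 3 are too few to set the transport group apart from measured genes. The Sp1 box GGGCGG, searched on both strands, lay in windows of 14 of 15 enzymes, 5 of 5 regulators and 2 of 3 transport genes, against 69.6% of measured genes. The exact sterol element TCACNCCAC was found for 1 of 15 enzymes and 1.39% of measured genes. In Hmgcs1 its sequence is TCACCCCAC, from 137 to 129 bases before the start, between CCAAT boxes on either side. These matches describe letters in a window and show no binding, and in the runs printed here no match overlaps another.

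Most of the pathway was level between the libraries to within counting error. Of the 29 members, 4 were beyond it, or 13.8%, whereas 21.8% of all measured genes were. All 4 were lower in the knockout library: Clu, Apoe, Srebf1 and Idi1. Of measured genes, 9.3% were beyond counting error and lower, and 12.5% beyond it and higher, where the members counted 0. Clu was the 1 member at least 1.5-fold apart, against 8.95% of measured genes: 5.43% lower and 3.52% higher. With both conditions, where Clu again was the 1 member, 3.2% of measured genes were lower and 2.02% higher. Low-count genes swell that share: among the 11094 genes whose summed reads lie within the members' range of 109 to 10172, 2.97% were at least 1.5-fold apart, 1.61% lower and 1.35% higher. In that range 23.4% were beyond counting error, 9.28% lower and 14.1% higher. For 26 of 29 members the interval excluded a 1.5-fold difference in either direction, and the exceptions were Clu, Apoe and Fdps. That is 89.7%, beside 64.4% of measured genes and 82.0% of those in the members' range of reads. Members are set against the rest of the transcriptome in the plot of library levels.

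**Figure D1:**
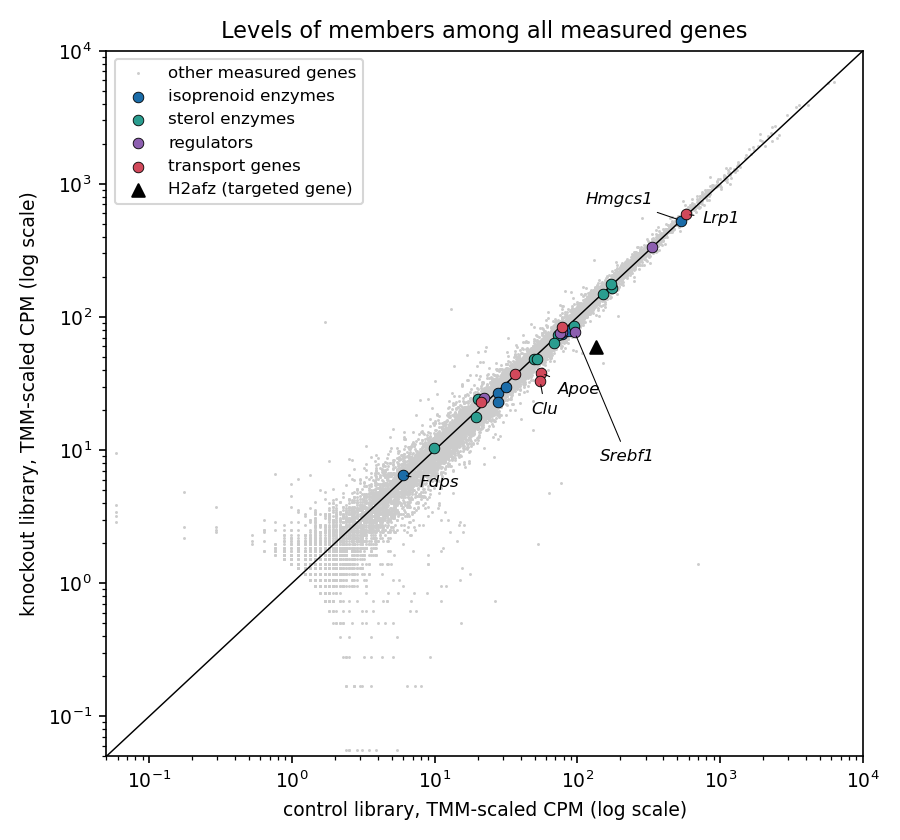
Levels in the control library (x) and the knockout library (y) as TMM-scaled CPM on log axes, for measured genes (grey, 0.5 read added) and the 29 members (coloured by role), with H2afz as a triangle and a line at equality. Members lie along the line, and Apoe and Clu sit below it.

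The enzymes that make isoprenoid units were nearly level. Hmgcs1 encodes the cytosolic synthase that makes HMG-CoA, the precursor of mevalonate, and lies at chr13:119690462-119708086. It had 4569 and 4727 reads, or 533 and 530 CPM. Its log2 ratio of -0.0075 had an interval from -0.07 to 0.05, so a difference of more than 1.05-fold either way lay outside it. Acat2, the cytosolic thiolase at the head of the route, had 667 and 659 reads, at -0.07 (-0.23 to 0.08). Mvk and Pmvk, the kinases that phosphorylate mevalonate in succession, had 238 and 239 reads and 237 and 204 reads. Pmvk stood lower than Mvk on the ratio scale, at -0.27 (-0.55 to 0.0033) against -0.05 (-0.32 to 0.21), and neither was beyond counting error.

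Idi1 was the enzyme that passed the limit, by a narrow margin. It encodes the isomerase that balances the isoprenoid building blocks, lies at chr13:8885501-8892451, and had 743 and 695 reads. That is 1.11-fold lower, at -0.15 on the log2 scale with an interval from -0.30 to -0.0017. Scaling by DESeq2 size factors moved its interval across 1, so the call rests on the scaling. Mvd, the decarboxylase before it, had 269 and 266 reads, at -0.07 (-0.32 to 0.18). Fdps, which joins the units to farnesyl diphosphate, had the fewest reads of all members, 51 and 58, and a wide interval of -0.44 to 0.70. Of the 50-base stretches in its annotated transcripts, 26.2% also occur in transcripts of 8 other annotated genes, and 26.7% of its exon bases overlap the gene model Gm43738 on the same strand. The sources used here do not say how reads that match several genes were counted, so the Fdps level is uncertain.

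The sterol branch, from squalene to cholesterol, showed no enzyme beyond counting error under TMM scaling, whereas Sqle and Lss were beyond it when scaled by total reads and Hsd17b7 with DESeq2 size factors. Its 11 genes ran from a log2 ratio of -0.14 for Tm7sf2 to 0.27 for Hsd17b7, and 7 of 11 were below 0. Fdft1, the synthase that couples farnesyl units to squalene, had 1287 and 1323 reads, at -0.02 (-0.13 to 0.10). Sqle, the epoxidase that adds the first oxygen and is a second rate-limiting step of the route, had 1500 and 1478 reads, at -0.08 (-0.18 to 0.03). Lss, which folds the epoxide into lanosterol, had 809 and 769 reads, at -0.13 (-0.27 to 0.01).

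Demethylation and later steps looked alike. Cyp51, the lanosterol demethylase, had 1471 and 1570 reads, at 0.04 (-0.07 to 0.14). Msmo1 and Nsdhl, which act in turn to remove methyl groups from the ring, had 627 and 654 reads and 425 and 431 reads, at 0.0043 and -0.04. Hsd17b7, the ketoreductase of the same complex, had 171 and 215 reads, 0.27 (-0.02 to 0.57), the highest ratio of any member. Tm7sf2, a sterol reductase of the nuclear envelope and endoplasmic reticulum, had 167 and 158 reads, at -0.14 (-0.46 to 0.19). Ebp, the isomerase that shifts the ring double bond, had 85 and 93 reads and an interval of -0.37 to 0.51. Sc5d, a desaturase, and Dhcr7, the reductase whose loss causes Smith-Lemli-Opitz syndrome, had 443 and 429 reads and 589 and 569 reads, at -0.10 (-0.30 to 0.09) and -0.11 (-0.28 to 0.06).

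As a group, the 18 enzymes had a median log2 ratio of -0.06, beside 0.0018 over all measured genes, and 13 of 18 were below 0, beside 49.6% of measured genes. Their reads summed to 14348 in the control and 14537 in the knockout library, or 1673 and 1630 CPM. The ratio of these sums was -0.04 (-0.07 to -0.0043), just beyond counting error and within it under DESeq2 size factors. The intervals of 17 of 18 enzymes excluded a 1.5-fold difference, Fdps being the exception, and 0 of 18 were at least 1.5-fold apart. Counts of 3 further enzymes may be split or shared: 39.1% of the 50-base stretches of Acat2, 26.5% of those of Fdft1 and 25.3% of those of Idi1 also occur in transcripts of other annotated genes.

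**Figure D2:**
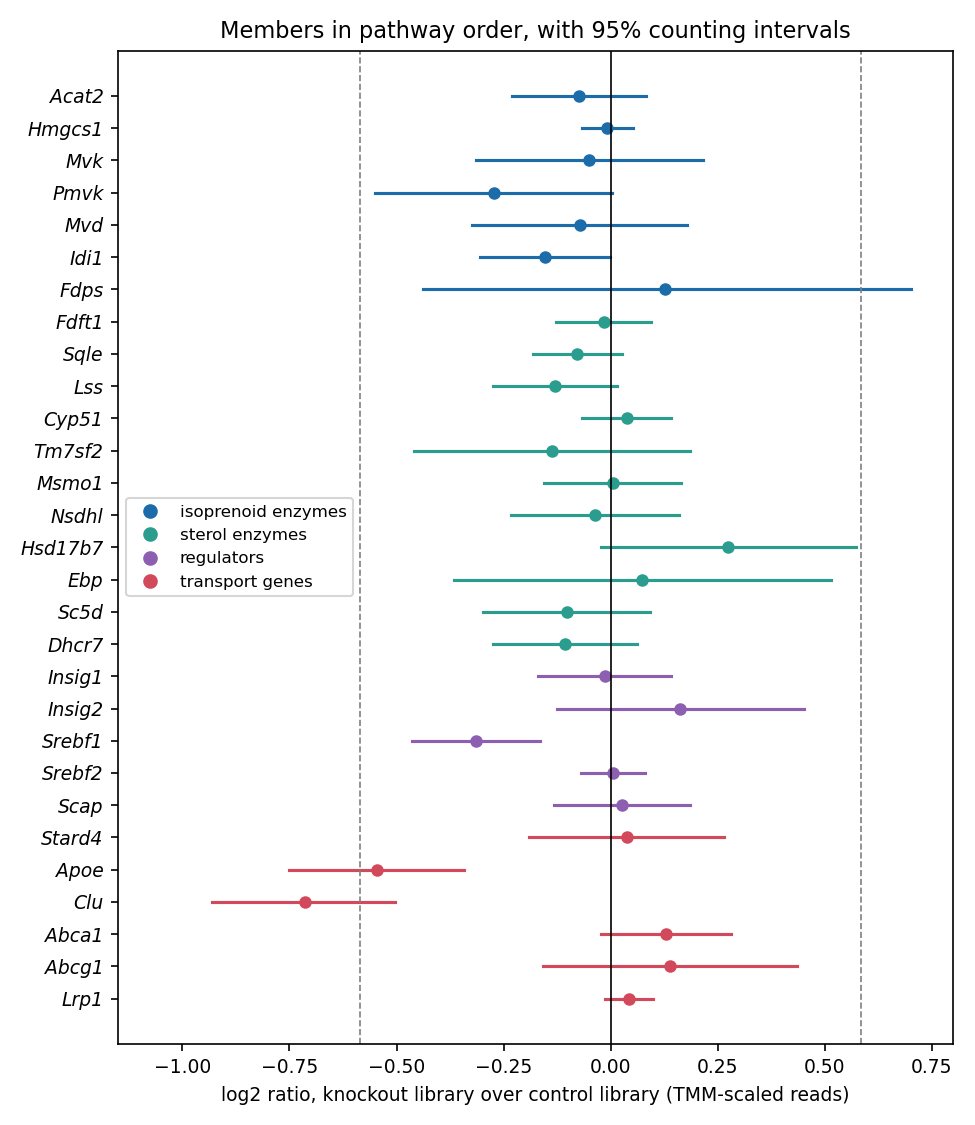
Log2 ratio of knockout over control library for each of the 29 members, in pathway order and coloured by role, with 95% counting intervals (bars). Dashed lines mark 1.5-fold, and Clu and Apoe stand apart at -0.71 and -0.55.

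Regulators of the pathway split by gene. Srebf2, whose protein drives mostly the cholesterol genes, had 2847 and 2973 reads, at 0.0060 (-0.07 to 0.08). Scap, the escort, had 643 and 681 reads, at 0.03 (-0.13 to 0.18). Neither differed beyond counting error. Insig1, itself switched on by SREBP, had 671 and 691 reads, at -0.01 (-0.17 to 0.14), and Insig2, its less sterol-dependent relative, 189 and 220 reads, at 0.16 (-0.12 to 0.45).

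Srebf1 was the regulator that was lower. Its protein drives mostly fatty acid synthesis genes, and its short isoform is a target of the sterol-sensing receptor LXR. At chr11:60199089-60222581, it had 819 and 685 reads, or 95.5 and 76.8 CPM. That is 1.24-fold lower (1.12 to 1.38), and 12.5% of measured genes had a lower ratio. Counts per gene do not separate its isoforms. Per kilobase of exon, the level of Srebf2 was 2.73 times that of Srebf1 in the control and 3.40 times in the knockout library.

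Transport genes held the members furthest apart and also several that were level. Apoe encodes the main lipoprotein protein of the brain and lies at chr7:19696109-19699166. It had 476 and 339 reads, or 55.5 and 38.0 CPM, 1.46-fold lower (1.27 to 1.68). Clu encodes clusterin, also called apolipoprotein J, a secreted chaperone found on brain lipoproteins, and lies at chr14:65968483-65981548. It had 469 and 297 reads, or 54.7 and 33.3 CPM, 1.64-fold lower (1.42 to 1.91). Of measured genes, 5.93% had a lower ratio than Apoe and 3.84% a lower ratio than Clu.

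The other transport genes did not share that difference. Abca1, the transporter that loads cholesterol onto apolipoproteins, had 663 and 754 reads, at 0.13 (-0.02 to 0.28). Abcg1, which passes sterol on to lipidated particles, had 180 and 206 reads, at 0.14 (-0.16 to 0.43). Both are, like Apoe and Srebf1, known LXR targets. The ratios of Abca1 and Abcg1 lay above 0 but within counting error, while those of Apoe and Srebf1 lay below 0 and beyond it. Regulation by LXR was not tested. Lrp1, a large endocytic receptor for APOE, had 4910 and 5262 reads, at 0.04 (-0.01 to 0.10), and Stard4, a carrier of cholesterol inside the cell, had 313 and 334, at 0.04 (-0.19 to 0.26).

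Set side by side, the 6 transport genes had a median log2 ratio of 0.04 and the 18 enzymes of -0.06, a difference of 0.10. No interval was computed for the medians, and this difference is smaller than the counting intervals of most single members: the medians of the members' lower and upper bounds were -0.17 and 0.18 for transport genes and -0.27 and 0.12 for enzymes. The transport mean was -0.15, of opposite sign to the median, because of Apoe and Clu, and without both the median was 0.09. Transport genes ranged over 0.85 on the log2 scale and enzymes over 0.55. In summed reads, transport genes had 7011 and 7192, a log2 ratio of -0.02 (-0.07 to 0.03), to which Lrp1 contributed most. Scaled by total reads this ratio was -0.055 (-0.10 to -0.0069), beyond counting error, and with DESeq2 size factors 0.0036. The 2 sums differed little, and the transport genes stood out through Apoe and Clu. The lowest enzyme ratio, that of Pmvk, lay above the upper bounds of both, although its own interval overlapped theirs.

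Apoe and Clu are also made outside neural cells, in macrophages, meningeal cells and choroid plexus epithelium. Choroid plexus and meningeal markers were lower with them, and macrophage markers in part. Of the choroid plexus list, 9 of 10 markers were measured and all 9 were at least 1.5-fold lower, with a median log2 ratio of -5.19 (-4.91 with Calml4, at 0 knockout reads, set to a floor of 3 reads). Among meningeal and fibroblast markers 9 of 10 were at least 1.5-fold lower, with a median of -3.74. Of the 8 measured microglia and macrophage markers, 2 were at least 1.5-fold lower and beyond counting error, beside 3.2% of measured genes. They were Mrc1 at 109 and 21 reads and C1qb at 72 and 45, and the other 6 were within counting error. Summed levels of the 8 were 64.2 and 47.2 CPM, with a median log2 ratio of -0.26. Csf1r, the receptor that defines these cells, had 128 and 141 reads, at 0.08 (-0.27 to 0.44). Endothelial and pericyte markers had a median of -0.18 and summed levels of 315 and 279 CPM. Of these 10, 5 were beyond counting error, all lower, beside 9.3% of measured genes, and 0 were at least 1.5-fold apart. The part of these cells in the Apoe and Clu ratios was not tested. In whole tissue, fewer cells of a type and less RNA per cell cannot be told apart.

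Markers of neural cells also differed between the libraries. Radial glia and astrocytes are among the known makers of APOE. Their markers had a median of -0.13, and 5 of 10 were beyond counting error, all lower, with 0 at least 1.5-fold apart. Of measured genes, 9.3% were lower beyond counting error, but these markers had more reads, with a median sum of 2288.5 against 505. Gja1, the gap junction gene of these cells and of meninges, had 416 and 298 reads, 1.45-fold lower (1.25 to 1.69). Its ratio was the furthest from 0 of the 10, and 2 of the 10 were above 0. Hes5, a Notch target of progenitors, was at -0.31 (-0.70 to 0.08), and Fabp7, a fatty acid binding protein of radial glia, at -0.21 (-0.29 to -0.13). Neuronal markers had a median of 0.19 and summed levels of 7336 and 8196 CPM. Of these 10, 8 were higher beyond counting error, beside 12.5% of measured genes. Their median of summed reads was 9190, beside 505 over measured genes, so smaller differences pass this limit. Nefl, the light neurofilament subunit and the 1 neuronal marker at least 1.5-fold apart, had 168 and 379 reads, 2.17-fold higher (1.80 to 2.62). Their part in the members' ratios was not tested.

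**Figure D3:**
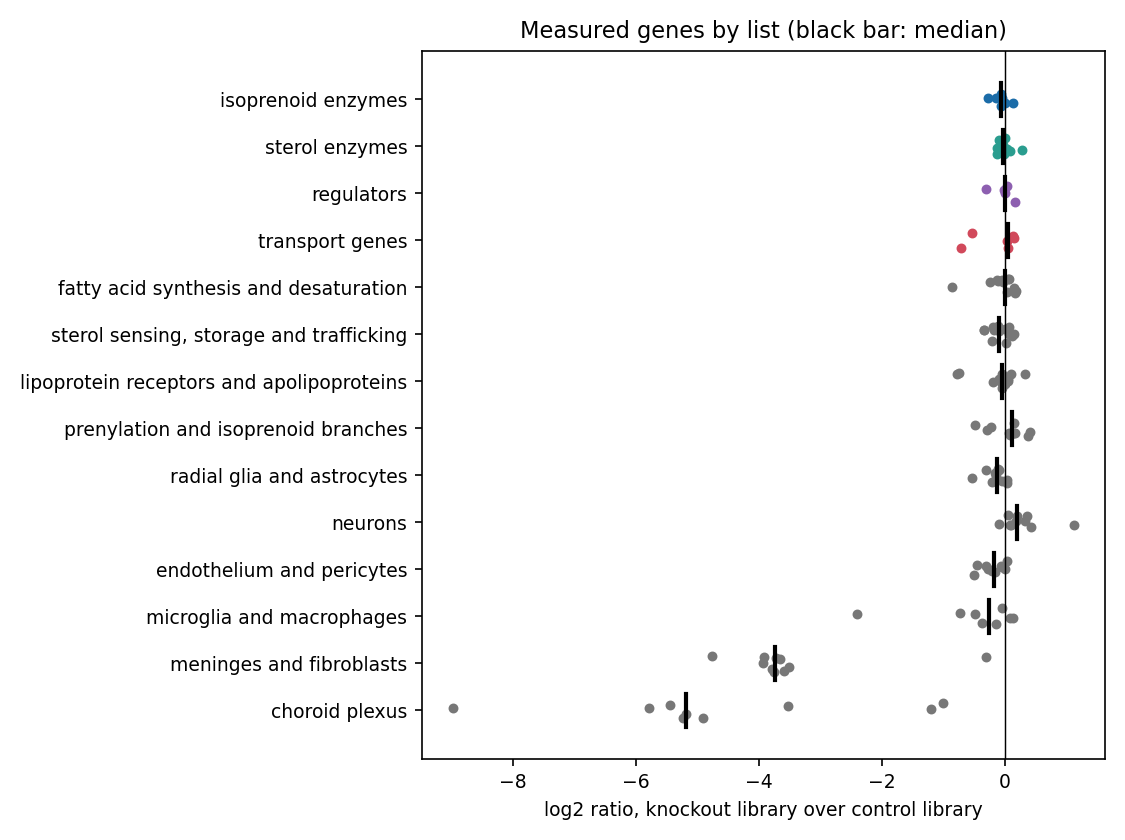
Log2 ratio of knockout over control library for measured genes of the member roles (coloured), 4 lipid pathway lists and 6 cell type marker lists (grey), 1 point a gene, with the median as a black bar. Member roles and lipid lists gather near 0, whereas choroid plexus and meningeal markers reach medians of -5.19 and -3.74.

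Levels per length ordered the members widely. Per kilobase of merged exons in GENCODE M21, Hmgcs1 stood first with 116 CPM in the control and 115 in the knockout library, 2.99 and 2.89 times the level of Cyp51. Srebf2 followed with 46.2 and 46.4, then Cyp51 with 38.8 and 39.9, Fdft1 with 35.5 and 35.1 and Lrp1 with 32.3 and 33.3. At the low end were Tm7sf2 with 4.42 and 4.02, Abcg1 with 2.88 and 3.16 and Fdps with 1.41 and 1.55. Apoe had 25.96 and 17.8 CPM per kilobase and Clu 15.9 and 9.69. Merged exons are longer than any single transcript, which lowers levels of genes with many annotated isoforms, so genes close together in this order are not told apart.

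**Figure D4:**
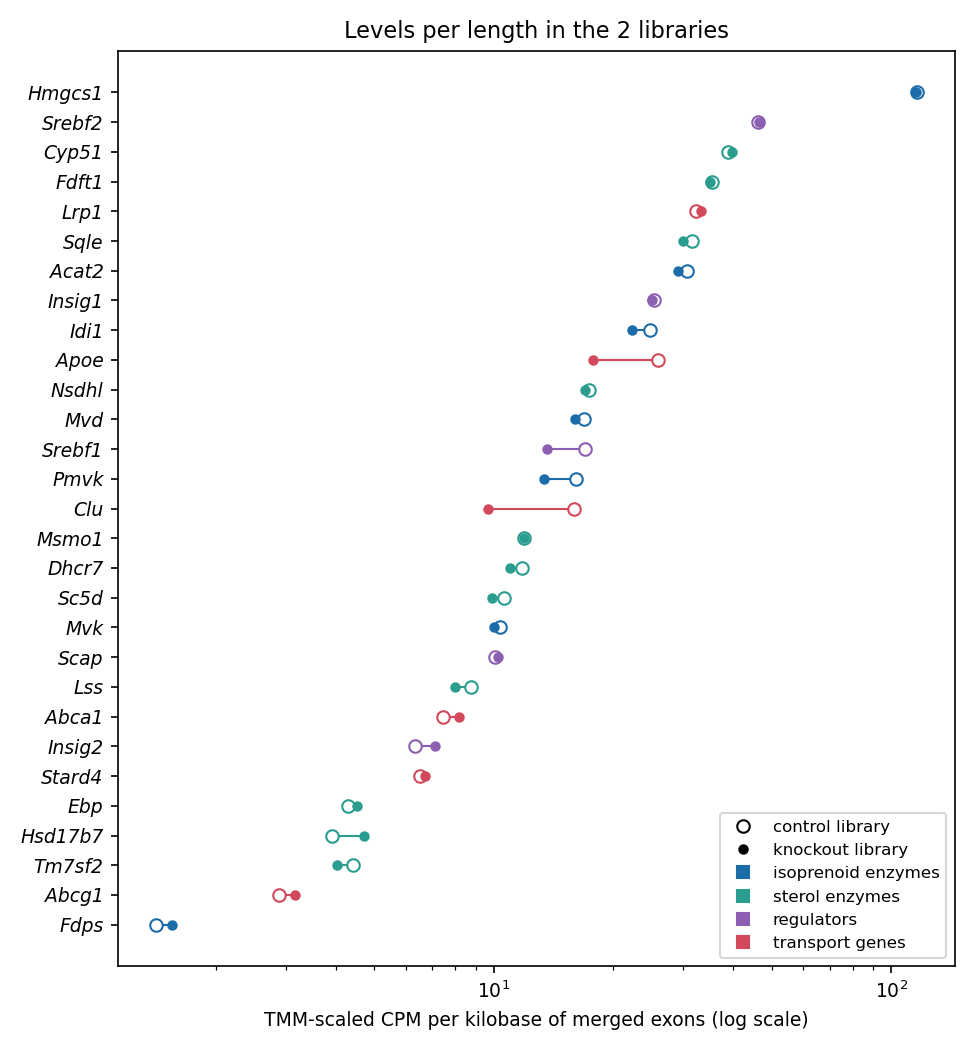
TMM-scaled CPM per kilobase of merged exons on a log axis for the 29 members, ordered by their mean, in the control (open) and knockout library (filled), coloured by role. Hmgcs1 is highest at 116 and 115, and the gaps between libraries are widest for Clu and Apoe.

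Neighbouring lipid pathways held small differences in both directions. Of 12 fatty acid synthesis and desaturation genes, which include targets of the Srebf1 protein, 3 were higher beyond counting error and 1 lower, 33.3% in all beside 21.8% of measured genes, with a median log2 ratio of 0.00019. Acaca, the carboxylase that commits carbon to fatty acids, had 1855 and 2157 reads, at 0.16 (0.07 to 0.25). Fads1, a desaturase, was at 0.15 (0.06 to 0.24), and Scd2, the main brain stearoyl-CoA desaturase, with 10935 and 10993 reads, at -0.05 (-0.09 to -0.01). Scd1, a related desaturase, and Me1, malic enzyme, were within counting error at -0.24 (-0.53 to 0.03) and 0.18 (-0.08 to 0.45). Thrsp, a lipogenic regulator, was the 1 gene of this list at least 1.5-fold apart, with 23 and 13 reads and an interval of -1.98 to 0.16.

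Genes of sterol sensing, storage and trafficking had a median of -0.10, and 0 of 14 measured genes were at least 1.5-fold apart. Nr1h2, which encodes the widespread form of LXR, had 549 and 451 reads, 1.27-fold lower (1.12 to 1.44). Abca7, a lipid transporter related to Abca1, had 232 and 191 reads, 1.26-fold lower (1.04 to 1.54). These were the 2 of 14 beyond counting error, or 14.3%, beside 21.8% of measured genes.

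Among other lipoprotein receptors and apolipoproteins, 13 of 19 were measured, the median log2 ratio was -0.04, and 2 were at least 1.5-fold lower, or 15.4% beside 8.95% of measured genes apart in either direction. Apod, an apolipoprotein of the lipocalin family, had 158 and 98 reads, 1.67-fold lower (1.29 to 2.18). Pltp, the phospholipid transfer protein of lipoproteins, had 111 and 67 reads, 1.72-fold lower (1.26 to 2.37). Both secreted products were thus lower as Apoe and Clu were, but they are the 2 measured genes of this list with ratios furthest from 0. Lpl, a secreted lipase on the same list, was within counting error at -0.20 (-0.52 to 0.11). No receptor on this list was beyond counting error. Lrp8, the reelin and APOE receptor, had 3976 and 4009 reads, at -0.04 (-0.11 to 0.02), and Lrp2, the megalin receptor, had 68 and 89 reads, at 0.33 (-0.14 to 0.81). Apoc1, the gene beside Apoe, had 1 read in each library, too few for a ratio.

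The authors' deposited table also gives p-values for each gene, from a test not named in the sources used here. In the authors' deposited table, 0 of 29 members are marked significant, beside 1.82% of measured genes. All 318 genes so marked differ at least 2-fold there, which no member does, Clu being furthest apart at 1.68-fold. Adjusted p-values under 0.05 in the authors' deposited table belong to 3 of 29 members, beside 9.79% of measured genes: Clu at 1.72e-10, Apoe at 9.21e-07 and Srebf1 at 0.000129. With 1 library per genotype, such values cannot include variation between animals. Idi1 has an adjusted p of 0.118 in the authors' deposited table.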

How the data were processed

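Raw read counts per gene, 1 column for each of 2 genotypes, were taken as deposited. HTSeq 0.6.0, TopHat2 2.0.12 and Bowtie2 2.2.3 are listed without roles, and mm9 as the build, per the submitters' processing notes. Positions in the deposited table nevertheless equal GENCODE M21 (GRCm38) for 78.8% of 19720 genes and overlap the same gene for 99.3%, so they are given as GRCm38. The authors' CPM columns divide counts by a constant per library, with 0 entered as 0.5. The deposited ratio (fold) and log2 columns are control over knockout, and the p-value columns come from a test not given in the sources used here.

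Symbols from GENCODE M21 matched 19616 identifiers. Counts were scaled by TMM in edgeR 4.0.16 (R 4.3.3), with 0.5 read added before the log2 ratio; DESeq2 1.42.0 size factors were an alternative. Intervals and figures came from scipy 1.17.1, matplotlib 3.10.9, pandas 2.3.3 and numpy 2.4.6 under Python 3.11.15. The calculation was tested on simulated counts. Intervals treat reads as independent molecules and cover counting error only. With 1 library per genotype no p-value was computed. The members, the 7 cell type lists and the 4 pathway lists were chosen with earlier results of these data known. All members were named, and of each list only genes among the 4 furthest from 0, not always all 4, besides every marker at 0 reads. Lrp8, Apoc1, Csf1r, Fads1, Scd2 and Dhdds were named after their values were seen. Overlap with other genes was measured on exons and on 50-base stretches of GENCODE M21 transcripts.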

Additional observations from a re-analysis of the deposited data

How the results depend on the processing

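The 6 alternatives were scaling by total reads, by DESeq2 size factors or by TMM without the marker lists of 4 other tissues, a prior of 5 reads, a minimum of 100 reads and no minimum. All 174 recomputed ratios of single members stayed within their counting intervals. Rescaling shifted every gene by the same amount, too small to leave any member's interval, so this outcome carries no information. Srebf1, Apoe and Clu were beyond counting error in every setting, and Clu alone was at least 1.5-fold apart in each. Changing the minimum could not alter any member's ratio, as the fewest reads of a member were 109. The prior does not enter the intervals, so only the scaling alternatives could change which members were beyond counting error. Scaled by total reads, 7 members were beyond counting error (Pmvk, Sqle and Lss in addition, all lower), and the summed enzyme reads had a log2 ratio of -0.072. With DESeq2 size factors 5 were: Idi1 was not, and Hsd17b7 and Lrp1 were, both higher. Scaled by total reads, the median of the transport genes was 0.0054 and that of the regulators -0.03. Enzymes below 0 numbered 11 to 14 of 18. The median of all genes lay between -0.03 and 0.03. Genes at least 1.5-fold apart numbered 1286 in the main setting, 365 with a minimum of 100 reads and 4136 with none, as low counts were removed or added. No paired analysis was possible because each genotype has 1 library. Depth limits Fdps and Ebp most, with 109 and 178 reads in all.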

Other observations

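Genes that draw on isoprenoid units for other products ranged more widely than the sterol branch, over 0.89 against 0.41 on the log2 scale. They had fewer reads, with a median sum of 539.5 against 1158. The ends of their range were Pdss2 and Pdss1, with 188 and 302 reads in all. Counting error widens such a range, and its part was not tested. Of 10 such genes, 2 were higher in the knockout library beyond counting error and 2 lower, 40.0% in all beside 21.8% of measured genes, with 0 at least 1.5-fold apart and a median log2 ratio of 0.11. Fnta, a subunit shared by the enzymes that attach farnesyl and geranylgeranyl groups to proteins, had 335 control and 450 knockout reads, 1.29-fold higher (1.12 to 1.49). Pdss1 and Pdss2, the subunits of the synthase that makes the tail of ubiquinone, had opposite ratios: Pdss1 had 127 and 175 reads, 1.32-fold higher (1.05 to 1.68), and Pdss2 had 108 and 80 reads, 1.40-fold lower (1.04 to 1.90). Dhdds, which makes dolichol for protein glycosylation, had 556 and 495 reads, 1.17-fold lower (1.03 to 1.32). With 1 library per genotype these differences have no replicate check.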
